A study of Homo sapiens with 4 samples.

Results

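The 5' untranslated region (5' UTR) is the stretch of a transcript between its start and the first codon that is translated. The peaks described here are those that the peak annotation places in a 5' UTR with the peak centre no more than 1000 bases from a transcription start site (TSS). This annotation selected 1669 of the 110018 merged H3K4me3 peaks, in 1609 named genes, and it used no measured value. All of them lay downstream of the TSS, 101 to 967 bases from it with a median of 203, because the annotation names peaks up to 100 bases after a TSS promoter-TSS instead. Of the 1669, 1038 were 101 to 250 bases from the TSS, 490 were 251 to 500 and 141 were farther. H3K4me3 was profiled by CUT&Tag, in which an antibody brings a transposase to the mark so that the DNA beside it is cut and sequenced, in HCC1428, an established luminal breast cancer line of wild-type genotype. Cells were collected on day 5 of treatment with 2.5 µM C48, an inhibitor of the KDM5 histone demethylases (2 libraries), or with the vehicle DMSO (2 libraries). The series asked how inhibition of KDM5 changes this mark.

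H3K4me3, the trimethylated lysine 4 of histone H3, is placed by the SET1 and MLL methyltransferase complexes and removed by demethylases that include the KDM5 family. It marks the nucleosomes around active start sites, and the strongest signal of a typical CpG island promoter lies on the first nucleosomes downstream of the TSS, where the 5' UTR begins. CpG islands are stretches in which the dinucleotide CpG has not been depleted, and the SET1 and MLL complexes carry subunits that bind unmethylated CpG. Promoters without a CpG island tend to be specific to a cell type or a stimulus and to carry less of the mark.

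Depth was 58.4 and 72.7 M aligned tags in C48 libraries, against 88.4 and 64.6 M in DMSO libraries, and 63.97% to 66.3% of these tags lay in merged peaks. Replicates correlated across all tested peaks at 0.994 in C48 and 0.993 in DMSO on the log scale, against 0.955 to 0.958 between the groups, and peaks are not independent replicates. Of 11 luminal marker genes, 9 had a called peak within 1000 bases of a TSS, against 1 of 9 leukocyte, 2 of 8 stromal and endothelial and 2 of 5 basal markers. The summed signal of the leukocyte list was 43.6 and 40.6 in C48 libraries, against 20.3 and 18.0 in DMSO libraries, and that of the luminal list 3955 and 4102 in C48, against 6907 and 6695 in DMSO. The basal list summed to 172 and 159 in C48, against 113 and 105 in DMSO, and the stromal and endothelial list to 6.24 and 5.17 in C48, against 2.22 and 3.18 in DMSO. The part of these lists in the results below was not tested.

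Values are tags per 10 M aligned tags, scaled between libraries with TMM, a method that takes most peaks as unchanged. Directions are therefore relative to the bulk of the peaks, and a gain or loss common to all peaks would not show. The study added fly nuclei as a spike-in for scaling. It reports fewer fly reads in C48 than in DMSO libraries, and relates this to a global increase of the mark. With spike-in scaling the study reports an increase of the mark in promoter regions, where unscaled peaks would be undercounted in C48. It also reports more H3K4me3 by immunoblot in this line after a longer treatment. The lower calls below are therefore not losses in absolute amount as the study measured it. In bulk material, loss of the mark from some cells and less of it in every cell cannot be told apart. Fold changes are on the log2(value + 1) scale, C48 over DMSO, and peak coordinates are those of hg38.

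Sequences at the start sites of peaks at both ends of the response show the contrast in CpG content that runs through the results. They are the 30 bases just before the RefSeq TSS nearest to the peak (GRCh38.p14), 5′ to 3′ on the gene's strand, with each CpG in capitals, for up to 3 of the 8 largest rises and of the 8 largest falls described below, taken in order of size where a RefSeq promoter was matched (2 of the rises).
IFIT1, largest rises (chr10:89392593-89392622, plus strand): ttatataacactgtcttggggtttaaaCGt
PTN, largest rises (chr7:137343734-137343763, minus strand): tcctcctggccCGctcctctcatccctccc
ZNRF2, largest falls (chr7:30284567-30284596, plus strand): gggCGggggCGgggtcaaCGCGCGCGaccc
XPO1, largest falls (chr2:61538357-61538386, minus strand): aataggagggCGggctgggggCGgaggccc
KIAA1958, largest falls (chr9:112486797-112486826, plus strand): CGgcccCGcccCGgccCGccCGCGcccCGc
The 250 bases before the TSS held 4 CpGs at IFIT1 and 8 at PTN, against 28 at ZNRF2, 16 at XPO1 and 37 at KIAA1958.

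Relative to the bulk of peaks, more 5' UTR peaks were lower than higher in C48. Of the 1669, 1334 had been called by HOMER in at least 1 of the 4 libraries, and 1309 of these, in 1282 named genes, had a mean of at least 5 tags and were tested. The other 25 called peaks were weaker, and 335 were called in none of the libraries, of which 192 had a mean of at least 5. Limma called 252 higher and 842 lower at an adjusted p below 0.05, and 215 were not called. Over all 33772 tested peaks, 32.4% were called higher and 39.2% lower, 71.6% in all. The median log2 fold change was -0.43 at 5' UTR peaks and -0.02 over all peaks. The libraries of the groups did not overlap at 1197 of the 1309, where 85.1% of all tested peaks did not overlap. The promoter-TSS peaks within the same distance had 1260 higher and 5317 lower of 7913 and a median of -0.48. Exon peaks (median -0.42, n = 1353) and intron peaks (-0.42, n = 4642) within 1000 bases of a TSS were close to both. The difference between these classes was not tested.

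The split rested on how the libraries were scaled. Per 10 M aligned tags as deposited, 506 of the 5' UTR peaks were called higher and 558 lower (median -0.03, where all peaks had 0.38, with 53.3% higher and 23.2% lower). On the column total the counts were 555 and 493, with DESeq2 size factors 189 and 900. Scaled on the promoters of ribosomal protein genes they were 953 and 119, with a median of 0.42 against 0.83 for all peaks, of which 80.2% were called higher and 4.58% lower. A scaling shifts the median of the 5' UTR peaks and that of all peaks together, so the gap between them does not test it.

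The share of the signal that fell in 5' UTR peaks does not depend on scaling. It was 5.865% and 5.864% of the tags in merged peaks in C48 libraries, against 6.325% and 6.319% in DMSO libraries. The Wilson 95% intervals ran from 5.857% to 5.872% and from 5.857% to 5.871% in C48, and from 6.319% to 6.331% and from 6.312% to 6.327% in DMSO, and cover counting error only. These intervals take each tag as independent and would be too narrow where tags share a fragment. The share was lower in both C48 libraries than in either DMSO library, by 0.458 percentage points on average. Two-sided exact permutation gave p = 0.333, the smallest value that 2 against 2 libraries allow. HOMER had called 1142 of the 5' UTR peaks in all 4 libraries. Of the rest of the 1669, 29 were called in both C48 and neither DMSO library, and 34 in the opposite case. Among the 14191 promoter-TSS peaks within 1000 bases of a TSS these numbers were 354 and 236, and among all 110018 merged peaks 5533 and 1193.

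**Figure D1:**
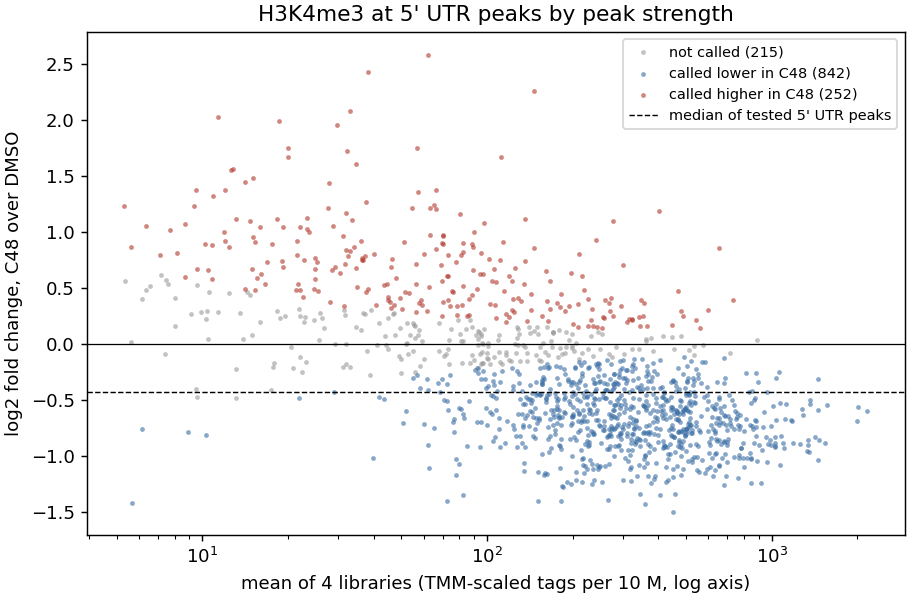
Log2 fold change (y axis, C48 over DMSO, TMM scaling) of the 1309 tested 5' UTR peaks against their mean level in all 4 libraries (x axis in tags per 10 M, logarithmic), with one point per peak coloured by the limma call. The 252 higher peaks lie mostly at weak signal and the 842 lower ones mostly at strong signal, and the dashed line is the median of -0.43. Another scaling shifts all points up or down together.

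With TMM, weak 5' UTR peaks were higher in C48 and strong ones lower. Peaks with a mean of 5 to 10 tags had 11 higher and 3 lower of 30 (median log2 fold change 0.53). Peaks with a mean of 10 to 20 tags had a median log2 fold change of 0.64, with 33 higher and 1 lower of 54. At 20 to 50 tags 62 were higher and 5 lower of 108 (median 0.42), and at 50 to 100 tags 60 were higher and 45 lower of 156 (0.08). From 100 to 200 tags 42 were higher and 156 lower of 255 (-0.36), and from 200 to 500 tags 39 were higher and 412 lower of 475 (-0.59). Above 500 tags 5 were higher and 220 lower of 231 (-0.72). The promoter-TSS peaks gave medians of 0.41, 0.45, 0.31, -0.01, -0.33, -0.62 and -0.76 in the same classes. Across the 1308 peaks with a CpG value, Spearman's correlation of the fold change with the log2 mean was -0.61, a description of peaks that share the 4 libraries. On ribosomal protein promoters the 5' UTR medians were all above 0 and ran in the same order, with 1.42 at 10 to 20 tags and 0.13 above 500 tags.

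The 5 strongest 5' UTR peaks were all lower with TMM. PDE7A, which encodes a cAMP phosphodiesterase, had 1720.1 and 1739 tags per 10 M in C48, against 2649.7 and 2579.8 in DMSO (log2 fold change -0.60, SE 0.03, limma adjusted p = 2.85e-22). OSR2, a zinc finger transcription factor of limb and tooth development, had 1504 and 1553 in C48, against 2497 and 2407 in DMSO. CDR2L, EMX1, a homeobox gene of the forebrain, and ZBTB10 changed by -0.56, -0.54 and -0.88. Scaled on ribosomal protein promoters PDE7A (0.26), OSR2 (0.17), CDR2L (0.29) and EMX1 (0.31) turned higher, and ZBTB10 (-0.03) was not called.

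CpG-poor 5' UTR peaks were more often called higher than CpG-rich ones, although most of the higher peaks were CpG-rich. The measure is the number of CpGs in the peak over the number its C and G content would give by chance pairing, which is about 1 where CpG has not been depleted. The split at 0.6, a customary limit for CpG islands, was chosen after the data were seen. Of 173 CpG-poor peaks (ratio below 0.6), 107 were called higher and 26 lower with TMM, with a median log2 fold change of 0.41. Of 1135 CpG-rich peaks, 145 were called higher and 815 lower, with a median of -0.50. The difference of the medians was 0.91, and between 0.86 and 0.97 under all 16 settings, where the scalings shift both medians together and bear little on it. On ribosomal protein promoters the CpG-poor peaks gave 168 higher and 0 lower and the CpG-rich ones 785 higher and 118 lower.

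In steps of the ratio, the median was 0.68 below 0.2 (n = 15), 0.71 from 0.2 to 0.4 (n = 55), 0.29 from 0.4 to 0.6 (n = 103), -0.41 from 0.6 to 0.8 (n = 470), -0.57 from 0.8 to 1 (n = 620) and -0.86 from 1 upward (n = 45). G+C content gave the same order in a coarser form, with medians of 0.84 below 45% (18 higher and 0 lower of 24), -0.25 from 55% to 60% and -0.58 above 70% (53 higher and 348 lower of 480). CpG-poor peaks were also the weaker ones, with a median mean of 61.9 tags against 247 in CpG-rich peaks. Within classes of strength, the median of CpG-poor against CpG-rich peaks was 0.75 against 0.40 at 5 to 50 tags, 0.38 against -0.30 at 50 to 200 tags, and 0.07 against -0.65 above 200 tags. In the strongest class 14 of 33 CpG-poor peaks were higher and 13 lower, whereas 30 of 673 CpG-rich peaks were higher and 619 lower.

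**Figure D2:**
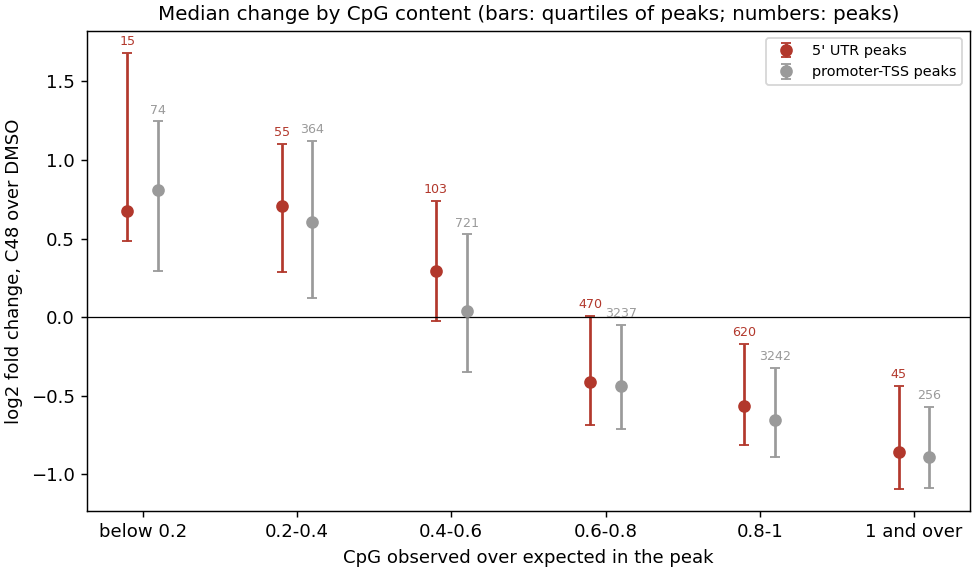
Median log2 fold change (y axis, C48 over DMSO, TMM scaling) of tested 5' UTR peaks and promoter-TSS peaks within 1000 bases of a TSS, by the CpG observed-to-expected ratio of the peak (x axis), with bars spanning the quartiles and the number of peaks above. Medians of the 5' UTR peaks are 0.68 below a ratio of 0.2 and -0.86 from 1 upward, and those of promoter-TSS peaks 0.81 and -0.89. A different scaling would shift every point together.

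The same contrast appears as a share that no scaling changes. CpG-poor peaks took 7.48% and 7.40% of the tags in all 5' UTR peaks in C48 libraries, against 4.68% and 4.72% in DMSO libraries. The share was higher in both C48 libraries, by 2.74 percentage points on average (two-sided exact permutation p = 0.333, the smallest possible). Promoter-TSS peaks were ordered in the same way, with medians of 0.27 for CpG-poor (n = 1159) and -0.56 for CpG-rich peaks (n = 6735). The 2 classes had close medians in other properties: the median CpG ratio was 0.80 in 5' UTR peaks and 0.78 in promoter-TSS peaks, the median G+C content 67.7% and 66.3%, and the median width 675 and 680 bases.

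The 8 largest rises at called 5' UTR peaks with a mean of at least 50 tags were higher under each of the 5 scalings. TFF3, a trefoil peptide secreted by mucosal epithelium and produced by oestrogen-responsive breast cells, had 102 and 111 tags per 10 M in C48, against 18.6 and 15.5 in DMSO (chromosome 21, 42315103 to 42315815, log2 fold change 2.58, SE 0.14, limma adjusted p = 2.77e-21). BCAS1, a gene amplified in some breast cancers, had 249 and 235 in C48, against 53.5 and 46.1 in DMSO (2.26, SE 0.09, limma adjusted p = 2.83e-25). Both C48 libraries stood several-fold above both DMSO libraries at each gene. ALDH3B2, an aldehyde dehydrogenase gene, had 166 and 176 in C48, against 53.0 and 53.0 in DMSO (1.67).

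IFIT1, an interferon-induced protein that binds RNA with a foreign 5' end, had 88.3 and 87.7 in C48, against 25.7 and 25.2 in DMSO (chromosome 10, 89393036 to 89393555, 1.75, SE 0.13, limma adjusted p = 1.74e-16). Its peak was centred 672 bases downstream of the TSS. The window from 118 bases before the TSS holds the letters of the interferon-stimulated response element (ISRE) at a pair of adjacent places. They are in capitals, each TTTC, any 2 bases and TTTC, which is the reverse complement of the form usually written.
IFIT1 (chr10:89392505-89392534, plus strand, GRCh38.p14): agTTTCACTTTCcccTTTCGGTTTCcctag
POU2F3, a transcription factor of tuft cells, had 99.8 and 91.5 in C48, against 35.6 and 36.7 in DMSO (1.38). PTN, which encodes the growth factor pleiotrophin, had 86.4 and 78.5 in C48, against 33.1 and 30.2 in DMSO (1.35). MGST2, a microsomal glutathione transferase gene, rose by 1.24 and ARHGDIB by 1.22. Of these 8 peaks, 7 were CpG-poor, with ratios of 0.16 to 0.50, and POU2F3 stood at 0.66.

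The 8 largest falls were at CpG-rich peaks, and they were lower under each of the 5 scalings. None of the 5 uses the fly spike-in, so a fall in absolute amount is not shown. ZNRF2, an E3 ubiquitin ligase gene, had 229.6 and 240.0 tags per 10 M in C48, against 679.5 and 648 in DMSO (chromosome 7, 30284459 to 30285230, log2 fold change -1.495, SE 0.05, limma adjusted p = 5.6e-27, and -0.65 scaled on ribosomal protein promoters). XPO1, the main nuclear export receptor, had 186 and 203 in C48, against 537 and 509.8 in DMSO (-1.43, and -0.58 on that scaling). KIAA1958 had 98.6 and 99.7 in C48, against 257 and 270.5 in DMSO (-1.40, and -0.56). At each of them both C48 libraries lay far below both DMSO libraries. POGZ, a heterochromatin-associated zinc finger protein, changed by -1.40, HECA by -1.40, CDYL, a chromodomain corepressor, by -1.39, CACUL1 by -1.34 and FAM117B by -1.34. On ribosomal protein promoters these 5 stood between -0.49 and -0.56. The CpG ratio of the 8 peaks ran from 0.63 at XPO1 to 1.05 at HECA.

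**Figure D3:**
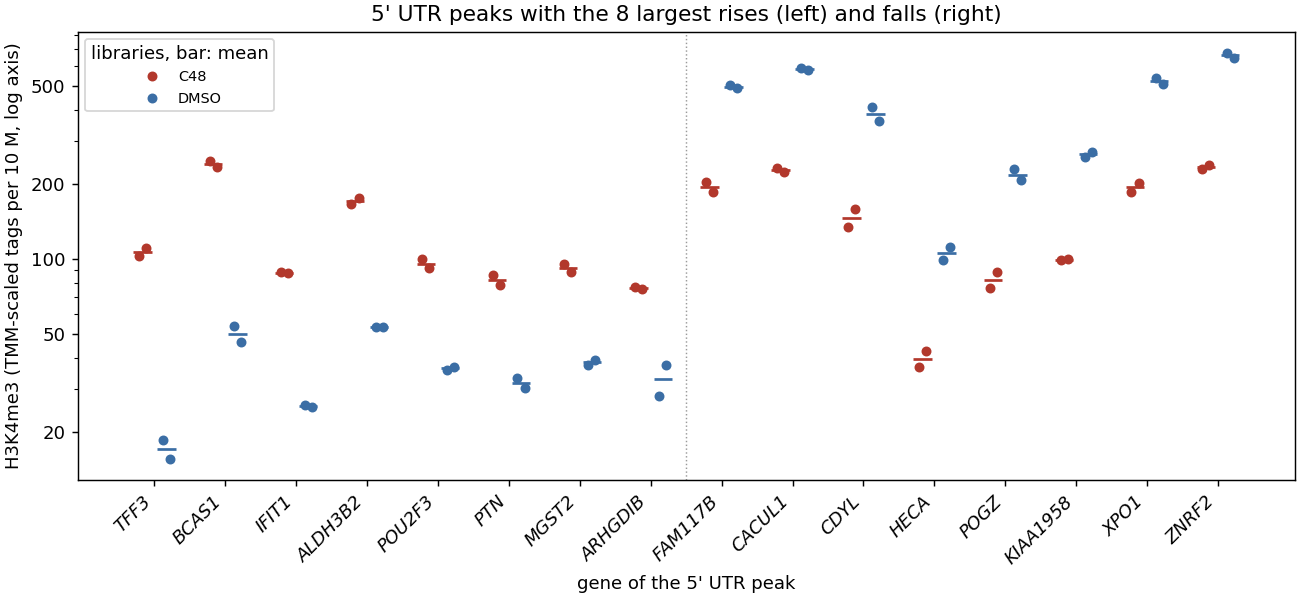
Signal (y axis, logarithmic, tags per 10 M after TMM scaling) at the 5' UTR peaks with the 8 largest rises (left) and the 8 largest falls (right) among called peaks with a mean of at least 50 tags, with C48 libraries left of DMSO libraries at each gene (x axis). Points are libraries and short lines the mean of 2. TFF3 stands at 102 and 111 in C48 against 18.6 and 15.5 in DMSO, and ZNRF2 at 229.6 and 240.0 in C48 against 679.5 and 648 in DMSO.

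Distance from the TSS was only weakly related to the change (Spearman's correlation 0.10 over 1308 peaks, a description). With TMM the median log2 fold change of 5' UTR peaks was -0.48 at 101 to 250 bases (144 higher and 561 lower of 838), -0.38 at 251 to 500 bases (79 and 235 of 377) and -0.17 at 501 to 1000 bases (29 and 46 of 94), but 0.37, 0.48 and 0.67 in the same order on ribosomal protein promoters. Promoter-TSS peaks at the same distances from the nearest TSS had medians of -0.65, -0.60 and -0.35 and were stronger, with a median mean of 339, 346 and 235 tags against 209.7, 268 and 183 in 5' UTR peaks. Exon peaks had -0.47, -0.46 and -0.20 and intron peaks -0.51, -0.50 and -0.15. In each distance class CpG-poor 5' UTR peaks stood above CpG-rich ones, at 0.41 against -0.55, at 0.29 against -0.45 and at 0.87 against -0.26. At the far limit, the last peaks included were at EFCAB14, 937 bases from the TSS, with 46.6 and 44.2 tags per 10 M in C48, against 23.3 and 18.7 in DMSO, and at ZNF43, 967 bases away, with 12.3 and 11.2 in C48, against 7.85 and 3.54 in DMSO. The first beyond it were at SLC16A12, 1004 bases away, with 48.04 and 46.4 in C48, against 23.3 and 20.8 in DMSO, and at ARHGEF11, 1013 bases away, with 10.9 and 9.97 in C48, against 2.09 and 1.59 in DMSO. HOMER called the EFCAB14, ZNF43 and ARHGEF11 peaks in none of the 4 libraries, so they were not among the tested peaks.

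**Figure D4:**
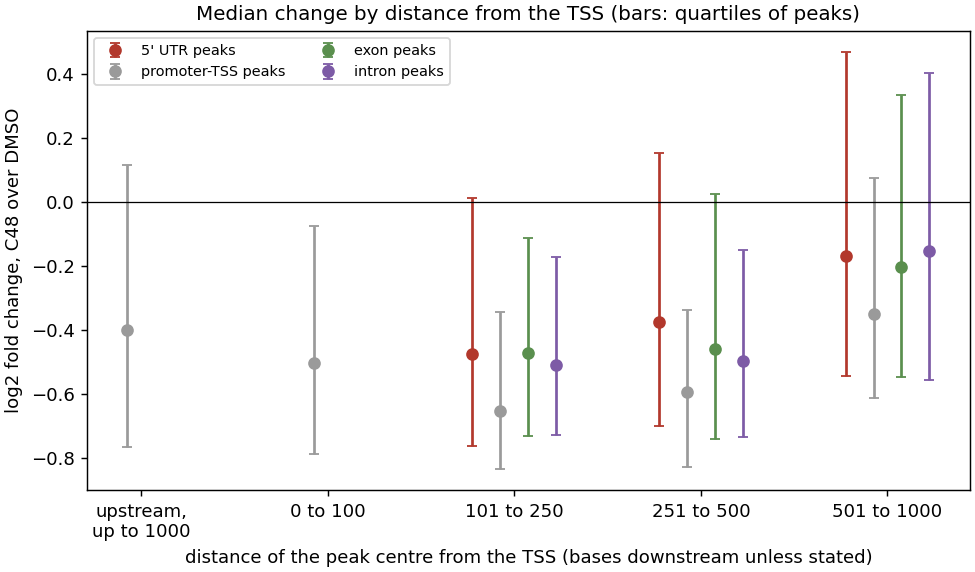
Median log2 fold change (y axis, C48 over DMSO, TMM scaling) of 5' UTR, promoter-TSS, exon and intron peaks by the distance of the peak from the nearest TSS (x axis, bases), with bars spanning the quartiles. The 5' UTR medians are -0.48, -0.38 and -0.17 with growing distance. By its definition the 5' UTR class has no peak upstream or within 100 bases. Promoter-TSS peaks more than 100 bases downstream took that name from a TSS other than the nearest.

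The 5' UTR peak was also compared with the promoter-TSS peak of the same gene, and library scaling cancels in this ratio apart from the pseudocount. The paired peaks can lie at different start sites of the gene. The ratio therefore does not tell whether the mark was redistributed along a single start. In 567 genes both peaks had a mean of at least 5 tags, whether or not HOMER had called them. The ratio of 5' UTR to promoter-TSS signal rose in 144 genes and fell in 233 (limma adjusted p below 0.05), with 190 not called and a median log2 change of -0.18, so that 25.4% rose and 41.1% fell. Which way it went followed which peak was stronger, a split made on the same values and given as a description. Where the 5' UTR peak was the stronger (361 genes), the ratio rose in 27 and fell in 203 (median -0.42), and where the promoter-TSS peak was the stronger (206 genes), it rose in 117 and fell in 30 (0.39). In both cases the weaker of the paired peaks gained on the stronger. The alternative of pairs at most 1000 bases apart, added after the data were seen, gave 98 rises and 209 falls of 473 genes, and the 94 pairs farther apart gave 46 and 24.

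Among pairs with both means of at least 50 tags, the 5 largest rises of the ratio were all in genes whose 5' UTR peak was the weaker of the pair. At ZNF565, a zinc finger gene, the ratio was 0.312 and 0.301 in C48, against 0.0680 and 0.0694 in DMSO (log2 change 2.16, SE 0.10, limma adjusted p = 5.1e-14). Its 5' UTR peak had 89.5 and 96.2 tags per 10 M in C48, against 46.1 and 48.2 in DMSO, while the promoter-TSS peak 29724 bases away had 289 and 322 in C48, against 691 and 708 in DMSO. IFRD1, a transcriptional coregulator gene, had a ratio of 0.176 and 0.189 in C48, against 0.0489 and 0.0487 in DMSO (1.90), with peaks 738 bases apart. OGFOD1, which encodes a ribosomal protein hydroxylase, rose by 1.53. At GNAS, an imprinted gene with several alternative first exons that encodes the stimulatory G protein alpha subunit, the ratio was 0.723 and 0.671 in C48, against 0.265 and 0.271 in DMSO (1.38), between peaks 48343 bases apart. NIF3L1, whose peaks are 13 bases apart, rose by 1.33.

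Among the 5 largest falls of the ratio, the 5' UTR peak was the stronger of the pair in every library in 3, SCAF4, CNBP and PRPSAP2, and the weaker in every library at ARMC5, while at LTBR it was the weaker in C48 and the stronger in DMSO. At LTBR, the lymphotoxin beta receptor, the ratio was 0.440 and 0.394 in C48, against 1.51 and 1.37 in DMSO (log2 change -1.79, SE 0.09, limma adjusted p = 5.1e-14). Both of its peaks were higher in C48: the 5' UTR peak had 176 and 165 tags per 10 M in C48, against 107 and 96.4 in DMSO, and the promoter-TSS peak 8923 bases away had 401 and 422 in C48, against 70.7 and 70.1 in DMSO. At SCAF4, an RNA-binding factor that acts at transcript ends, the 5' UTR peak had 368 and 376 in C48, against 759.6 and 767 in DMSO, and the promoter-TSS peak 218 bases upstream had 85.7 and 94.6 in C48, against 63.1 and 65.1 in DMSO (-1.52). CNBP, a nucleic acid binding zinc knuckle protein, changed by -1.30 and PRPSAP2, a regulator of phosphoribosyl pyrophosphate synthesis, by -1.20. At ARMC5 the ratio was 0.369 and 0.387 in C48, against 0.871 and 0.816 in DMSO (-1.16), the 5' UTR peak having 223 and 216 in C48, against 479 and 447 in DMSO.

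**Figure D5:**
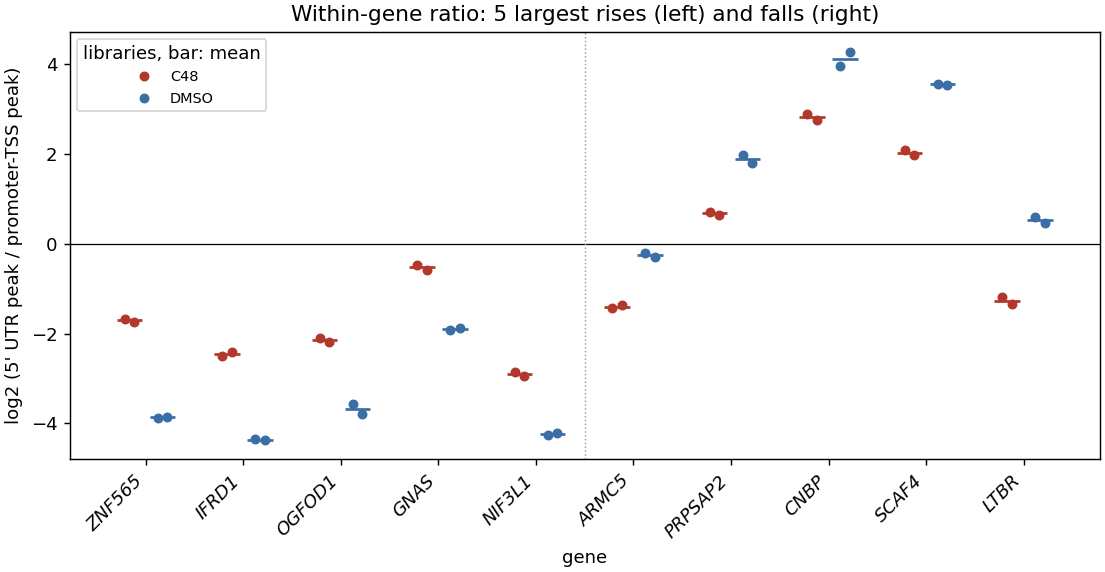
Log2 ratio of the 5' UTR peak to the promoter-TSS peak of the same gene (y axis) in the genes with the 5 largest rises (left) and the 5 largest falls (right), with C48 libraries left of DMSO libraries at each gene (x axis). Points are libraries and short lines the mean of 2. The ratio at ZNF565 changes by 2.16 and that at LTBR by -1.79 on the log2 scale, and the groups do not overlap in any of the 10 genes.

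Few interferon genes had a 5' UTR peak, and they moved in both directions with TMM. Of the 62 genes of the interferon signature that the study lists, 6 had a 5' UTR peak and 5 were tested, with 3 higher and 2 lower (4 higher and 0 lower on ribosomal protein promoters). Of all tested 5' UTR peaks 19.3% were higher and 64.3% lower with TMM. On ribosomal protein promoters 953 were higher and 119 lower of 1311, so most peaks were higher there. The higher ones were IFIT1, TRIM6, a ubiquitin ligase of the interferon response (0.91, named after its value was seen), and OASL, an interferon-induced inhibitor of viral replication with 125 and 119 tags per 10 M in C48, against 68.6 and 69.6 in DMSO (0.81, SE 0.10, limma adjusted p = 3.62e-10). The lower ones were JAK2, the kinase of several cytokine receptors, with 120.3 and 125 in C48, against 205 and 205 in DMSO (-0.74, but 0.11 with no call on ribosomal protein promoters), and ADAR, which edits adenosines in double-stranded RNA, with 175 and 193 in C48, against 273 and 281 in DMSO (-0.59, but 0.26 on that scaling). IFIT1 and OASL are CpG-poor, with ratios of 0.16 and 0.27, and JAK2 and ADAR CpG-rich, with 0.74 and 0.98. The antigen presentation list had 1 5' UTR peak and none tested. None of KDM5A, KDM5B, KDM5C, CGAS, STING1, ISG15, IFI44L, IFI44, OAS2, CXCL10, B2M, HLA-B, ACTB, GAPDH, ESR1, GATA3 and FOXA1 had a 5' UTR peak.

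The few tested peaks at genes of splicing, translation and protein turnover were mostly lower with TMM, as were 64.3% of all tested 5' UTR peaks and 86.7% of those with a mean of 200 to 500 tags. Of the 96 splicing factors listed 6 were tested, and all 6 were lower (median -0.71), but 4 were higher and 1 lower on ribosomal protein promoters. HNRNPC, which binds nascent transcripts, stayed lower on that scaling (-0.37), with 141 and 146 tags per 10 M in C48, against 339 and 328 in DMSO (-1.21, SE 0.07, limma adjusted p = 1.17e-20). The 3' splice site factor U2AF2 was at -0.94 (-0.09 and not called on that scaling) and SNRNP70 of the U1 particle at -0.72 (0.13 on it). All 4 cytoplasmic ribosomal protein genes were lower, RPS27 at -1.13 (-0.29 on that scaling), RPL27 at -0.95 (-0.10, not called) and RPL39L at -0.59 (0.26), and so were both proteasome genes, PSMC3 at -1.12 (-0.27) and PSMA4 at -0.49 (0.36). That scaling is set on promoter-TSS peaks of the ribosomal protein genes themselves, so it is no separate check of this family. The housekeeping genes VCP, an unfolding ATPase (-1.07, and -0.22), and ALDOA, a glycolytic enzyme (-0.89, but -0.04 and not called), were lower as well. The translation factor EIF4G1 (-0.62, but 0.23) and the ATP synthase subunit ATP5F1A (-0.53, but 0.32) also fell with TMM, while the mitochondrial ribosomal gene MRPS21 was at 0.10 with no call.

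R-loops, RNA strands paired with the template DNA, are kept in check by topoisomerases, helicases and RNA processing factors, among others. All 5 tested R-loop regulators were lower with TMM (median -0.70, where 64.3% of all 5' UTR peaks and 86.7% of those at 200 to 500 tags were lower), against 3 higher and 1 lower on ribosomal protein promoters. TOP1, which relaxes supercoils behind the polymerase, had 273 and 268 in C48, against 589 and 570.2 in DMSO (-1.10, SE 0.05, limma adjusted p = 1.28e-22, and -0.25 on that scaling). The helicase AQR was at -0.70 (0.14 on it) and the repair nuclease ERCC5 at -0.87 (-0.03, not called). Among the H3K4 methyltransferases and histone demethylases 3 of 4 were lower (2 higher and 2 lower on ribosomal protein promoters): HCFC1, a subunit of SET1 and MLL complexes (-1.18, and -0.33), the methyltransferase KMT2C (-1.14, and -0.30) and the core subunit DPY30 (-0.51, but 0.34). Of 11 DNA damage response genes 9 were lower and 1 higher, beside the same shares (8 higher and 0 lower on ribosomal protein promoters), including RIF1 (-0.87, but -0.02 and not called) and the ubiquitin ligase RNF168 (-0.96, but -0.11 and not called). The recombination gene RAD54L, named after its value was seen, rose by 0.34 and its peak is CpG-poor (0.25).

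Of 9 cell cycle and replication genes 8 were lower and 1 higher (1 lower and 7 higher on ribosomal protein promoters), where 64.3% of all 5' UTR peaks and 86.7% of those at 200 to 500 tags were lower. MKI67, the proliferation antigen, had 291 and 303 in C48, against 645 and 618 in DMSO (-1.08, and -0.23 on that scaling). CCND1, the cyclin D1 gene that oestrogen receptor signalling drives in luminal cells, had 484 and 524 in C48, against 888 and 925 in DMSO (-0.85, but 0.00 and not called), and E2F7 was at -0.68 (0.17). The related CCND2, named after its value was seen, rose by 1.05 at a weak peak with a mean of 22.1 tags. All 3 immediate early genes were lower with TMM, near the median of -0.59 for 5' UTR peaks at 200 to 500 tags, DUSP1 at -0.60, JUNB at -0.52 and MYCL at -0.48, and all 3 were higher on ribosomal protein promoters.

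Peaks of neuronal genes had more rises than falls with TMM, as did weak 5' UTR peaks as a whole. Of 17 tested peaks, 8 were higher and 4 lower with TMM (median 0.46, where all 5' UTR peaks had -0.43). On ribosomal protein promoters 15 were higher and 1 lower. Their median level was 38.8 tags. All 5' UTR peaks at 20 to 50 tags had 62 higher and 5 lower of 108 with TMM (median 0.42). On ribosomal protein promoters that class had 106 higher and 0 lower of 108. GRM3, a metabotropic glutamate receptor, had 89.1 and 87.3 tags per 10 M in C48, against 40.2 and 35.0 in DMSO (1.21, SE 0.12, limma adjusted p = 2.14e-12), and GRIK1, a kainate receptor, had 95.2 and 87.2 in C48, against 47.8 and 49.1 in DMSO (0.90). The axon guidance receptor ROBO1 was lower with TMM (-0.72, but 0.12 with no call on ribosomal protein promoters). Of 4 stromal and endothelial genes, ENG, the endothelial receptor endoglin (1.08), and COL1A2, a chain of type I collagen (0.98), were higher and COL5A1 was lower (-0.20, but 0.65 on that scaling, and not called without DMSO replicate 2, -0.17, or C48 replicate 1, -0.19). Of 3 blood and immune genes, LYN, a Src family kinase, was higher (0.65), and ETV6 (-0.88, but -0.03 and not called) and SYK (-0.21, but 0.64, and not called without DMSO replicate 2, -0.16, or C48 replicate 2, -0.14) were lower. Whether the lineage lists differ from peaks of like strength or CpG content was not tested.

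Of 3 luminal markers, TFAP2C, a transcription factor of luminal identity, had 806 and 871 in C48, against 1545 and 1537 in DMSO (-0.88, but -0.03 with no call on ribosomal protein promoters). The adhesion molecule EPCAM was at -0.72 (0.13 on it). SPDEF, an ETS factor of secretory epithelium with a CpG ratio of 0.14, was higher with TMM (0.16, limma adjusted p = 0.0233), a call lost without DMSO replicate 2 (0.13), C48 replicate 1 (0.16) or C48 replicate 2 (0.13). With DESeq2 size factors SPDEF stood at 0.037 with no call. Of 3 basal and mesenchymal markers, ITGA6 was lower (-0.44, but 0.41 on ribosomal protein promoters), and TGFBR2 (-0.17) and TGFB1 (0.04) were not called. HOXC8 was at 0.15 with no call. The largest family was that of the zinc finger genes named ZNF, with 71 tested peaks, 8 higher and 50 lower (median -0.43, the same as all 5' UTR peaks, but 53 higher and 2 lower on ribosomal protein promoters). ZNF746 was at -1.12, ZNF800 at -0.93 and ZNF496 at -0.91, of which ZNF800 (-0.08) and ZNF496 (-0.06) were not called on that scaling and ZNF746 stayed lower (-0.27).

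In 45 genes more than 1 peak fell in a 5' UTR. CACNB2, an auxiliary subunit of voltage-gated calcium channels, had the most with 4, spread over chromosome 10 between 18140351 and 18401292. All 4 were called higher in C48 with TMM. The first, which is CpG-rich and the strongest, had 158 and 161 tags per 10 M in C48, against 112 and 108 in DMSO (0.53, SE 0.08, limma adjusted p = 1.79e-07), and the second had 11.3 and 9.84 in C48, against 5.89 and 3.71 in DMSO (1.02, SE 0.30, limma adjusted p = 0.00243). The third had 25.9 and 22.1 in C48, against 13.2 and 14.6 in DMSO (0.74), and the last 67.2 and 68.0 in C48, against 57.5 and 52.4 in DMSO (0.30, limma adjusted p = 0.0209). The last call was lost without DMSO replicate 2 (0.23), C48 replicate 1 (0.29) or C48 replicate 2 (0.26), and that of the second without C48 replicate 1 (0.91). With DESeq2 size factors the last CACNB2 peak stood at 0.17 with no call. Of 3 peaks of KIAA1217, the 2 that were tested were higher, at 0.49 and 0.77. Of 3 at ELMO1, an engulfment and motility gene, 1 was tested, with 199 and 193 in C48, against 202 and 199 in DMSO (-0.03, not called).

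RefSeq promoters, 250 bases before to 50 after a TSS (GRCh38.p14), were matched to 1015 of the 1309 tested peaks, those with a RefSeq TSS of the same gene within 1000 bases. They were searched on both strands for 14 short letter strings, none of which contains another. The GC box GGGCGG was found at 71.1% of the 1015 promoters, against 44.95% of all 35116 promoters, and at 77.7% of the 677 whose peak was lower in C48 and 50.3% of the 189 whose peak was higher. The ETS string CCGGAAG stood at 16.4% of the lower and 6.35% of the higher (10.3% of all promoters), the NRF1 string at 2.51% and 0.529% (1.24%), and the YY1 string at 12 promoters of lower and 0 of higher peaks (1.20% of all). The TATA box TATAAA stood at 4.43% of the lower and 8.99% of the higher (11.5% of all), the GATA string AGATAA at 2.95% and 7.41% (10.3%), and the ISRE at 1.18% and 5.29% (3.57%). The GC box, ETS, NRF1 and YY1 strings contain CpG, the TATA and GATA strings do not, the free bases of the ISRE allow one, and no test was made. The strings CCAAT, TGACGTCA for CREB, GCCNNNGGC for TFAP2, TGTTTAC for FOXA, AGGTCA for an oestrogen receptor half-site, TTTCCCGC for E2F and the RFX core stood at 36.6%, 3.84%, 34.1%, 2.36%, 7.98%, 2.07% and 0.591% of the lower, and at 33.9%, 1.06%, 27.5%, 3.17%, 11.1%, 2.12% and 1.06% of the higher. Of these, the CREB and E2F strings contain CpG, and the free bases of the TFAP2 string allow one. The E2F string was no commoner at lower peaks, and CCAAT, which has no CpG, was commoner there. A match describes letters and is not a bound site.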

How the data were processed

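The authors aligned CUT&Tag reads to hg38 with Bowtie2 2.3.4.1, per the submitters' processing notes, called and merged peaks and annotated them with HOMER (version: not given in the sources used here). Signal values, as deposited, are HOMER tags per 10 M aligned tags in each merged peak, without spike-in scaling, beside the authors' HOMER peak score (not used) and the distance to the TSS, carried as a score column. Values are whole multiples of 1 tag in 100% of cases within 0.1 tags, so tags could be recovered. Fly spike-in counts were not used here. The labels call the libraries biological replicates, without saying if cultures were separate, so the spread behind each p-value may be only technical. The study's columns of treated samples carry the tag GNE and were matched through the sample descriptions. The authors' repeat table was not used.

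Libraries were scaled with the TMM factors of edgeR 4.0.16. Peaks called in at least 1 library with a mean of at least 5 (33772 of 45692) were tested together with limma 3.58.1 (trend, R 4.3.3) on log2(scaled value + 1), with Benjamini-Hochberg adjustment over all of them. The filter and limma were used because the values are normalized. The edgeR quasi-likelihood test on recovered tags was an alternative, with 1084 calls at 5' UTR peaks, of which limma made 1029 in the same direction. Within-gene ratios paired the strongest 5' UTR and promoter-TSS peak of a gene, each with a mean of at least 5 and called by HOMER or not. They were tested with limma, its variance trend on the weaker of the pair. The scripts were tested on simulated data. For the per-peak fit few peaks were changed there, with as many rises as falls, so the simulation does not test the scaling. G+C and CpG content came from hg38 through pysam 0.24.0, tables from Python 3.11.15, numpy 2.4.6, pandas 2.3.3 and scipy 1.17.1, plots from matplotlib 3.10.9. DESeq2 1.42.0 gave alternatives.

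The peaks, gene lists (23, with gene names written from general knowledge apart from the study's 2 signatures) and tests were chosen with earlier results of these data known. Named peaks are the 8 largest rises and falls with a mean of at least 50 and no overlap between groups, up to 3 with the smallest p in each list, a fixed set of genes, the 5 strongest, the 3 genes with most peaks, the 5 largest rises and falls of the ratio, and the 2 peaks on each side of the 1000-base limit.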

Additional observations from a re-analysis of the deposited data

How the results depend on the processing

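The counts of higher and lower 5' UTR peaks moved with scaling alone: 506 and 558 as deposited, 555 and 493 with each library set to its column total, 953 and 119 on promoters of ribosomal protein genes. Under the other alternatives they stayed within 1.5 times of 252 and 842, with edgeR's quasi-likelihood test giving 307 and 777 and all merged peaks tested 326 and 879. Leaving out 1 library gave 204 to 247 higher and 820 to 832 lower, and 116 to 133 rises and 181 to 211 falls of the ratio. The share difference was -0.403 percentage points over called peaks only. With few libraries, these limits concern scaling first: no spike-in counts were used here, and 2 libraries a group allow no exact p below 0.333.

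Same-numbered libraries did not deviate together (correlation -0.029 over all tested peaks), so the numbers do not pair them. With the replicate number as a block, 250 peaks were higher and 838 lower, and the ratio rose in 142 and fell in 226 genes.

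Log2 fold changes of the other sign on ribosomal protein promoters were JAK2 0.11, ADAR 0.26, RPL39L 0.26, EIF4G1 0.23, ATP5F1A 0.32, PSMA4 0.36, SNRNP70 0.13, DPY30 0.34, AQR 0.14, CCND1 0.0043, E2F7 0.17, DUSP1 0.25, MYCL 0.37, JUNB 0.32, EPCAM 0.13, ITGA6 0.41, TGFBR2 0.67, ROBO1 0.12, SYK 0.64, COL5A1 0.65, PDE7A 0.26, CDR2L 0.29, OSR2 0.17, EMX1 0.31 and ELMO1 0.82. As deposited they were TGFBR2 0.22, SYK 0.19, COL5A1 0.20 and ELMO1 0.37, and on the column total ITGA6 0.026, TGFBR2 0.29, SYK 0.26, COL5A1 0.27 and ELMO1 0.43. These follow from the shift that a scaling gives to all peaks. DESeq2 size factors gave MRPS21 -0.027 and TGFB1 -0.091, TGFB1 lay between -0.061 (without C48 replicate 2) and 0.091 (without C48 replicate 1) on leaving out 1 library, and ELMO1 was at 0.081 with edgeR, 0.016 with the DESeq2 Wald test and 0.024 over all merged peaks. None of MRPS21, TGFB1 and ELMO1 was called with TMM.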
